A study of Homo sapiens with 29 samples.

Results

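The genes described here are 62 of 12174 genes measured in BEAS-2B cells exposed to N-OH-PhIP, a DNA-damaging metabolite of a food-derived compound. Their signal was lower than the solvent control at 1000 nM N-OH-PhIP, the highest dose, and close to it at 500 nM, the next dose. For each gene symbol the probe set with the highest mean signal stood for the gene, provided that its mean of log2(intensity + 16) over the 29 arrays was at least 5.74. A gene was a member when its 1000 nM group mean lay at least 0.8 below the DMSO group mean on that scale and its 500 nM mean lay within 0.25 of it. A difference of 1 on the scale is a 2-fold change of intensity plus the offset of 16. The members were thus chosen by their measured 1000 nM and 500 nM differences from DMSO, and both are given below as descriptions without a test. The first condition was met by 968 genes, 7.95% of those measured, and the 62 members were 6.4% of these 968 and 0.509% of all genes. Of the others, 349 genes were lower by 0.8 or more at both doses, and in the opposite direction 66 genes were higher by 0.8 or more at 1000 nM while within 0.25 at 500 nM.

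BEAS-2B is a line of human bronchial epithelial cells immortalised with an adenovirus and SV40 hybrid virus, so its cells carry viral oncoproteins in every group. N-OH-PhIP carries a hydroxyl group on the exocyclic nitrogen of PhIP, one of the heterocyclic amines of the diet. Cultures in serum-free LHC-9 medium, which contains retinoic acid, were exposed for 24 hours to DMSO alone or to 0.1, 0.5, 1, 5, 10, 50, 100, 500 or 1000 nM N-OH-PhIP, with the solvent at 1% in all 10 groups. Each group had 3 arrays, from cultures the labels describe as triplicates, except 0.5 nM, which had replicates 1 and 3 only. The p-values measure the spread between these cultures of 1 line at 1 time.

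As background, PhIP is formed when meat is cooked at high heat, and cytochrome P450 enzymes convert it to N-OH-PhIP. Esters of N-OH-PhIP made in the cell bind guanine and leave bulky adducts on DNA. Bulky adducts on a transcribed strand can stall RNA polymerase II, and long genes offer more target to such damage. An array reads the amount of RNA left at the end of the exposure, so synthesis and decay of a transcript both enter a value. The members did not belong to 1 pathway. They included transcription factors, a growth factor receptor, kinases, cilium and centrosome proteins, RNA-processing enzymes and mitochondrial proteins.

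The 3 members with the lowest differences from DMSO at 1000 nM were SOX6, DHRS3 and TBCK, and their promoter windows are shown for that reason. The sequences are from RefSeq on GRCh38.p14 and cover the 250 bases upstream of the first listed start. All 3 lie on the minus strand and are written 5′ to 3′ in the direction of the gene. Capitals mark matches to any of 12 motifs searched on both strands. The windows are chr11:16738478-16738727 for SOX6, chr1:12618211-12618460 for DHRS3 and chr4:106316684-106316933 for TBCK.
SOX6: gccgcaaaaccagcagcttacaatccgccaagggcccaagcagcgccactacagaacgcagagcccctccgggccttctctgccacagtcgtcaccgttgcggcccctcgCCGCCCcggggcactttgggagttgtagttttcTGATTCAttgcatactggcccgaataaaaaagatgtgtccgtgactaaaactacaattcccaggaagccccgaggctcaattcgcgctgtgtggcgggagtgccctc
DHRS3: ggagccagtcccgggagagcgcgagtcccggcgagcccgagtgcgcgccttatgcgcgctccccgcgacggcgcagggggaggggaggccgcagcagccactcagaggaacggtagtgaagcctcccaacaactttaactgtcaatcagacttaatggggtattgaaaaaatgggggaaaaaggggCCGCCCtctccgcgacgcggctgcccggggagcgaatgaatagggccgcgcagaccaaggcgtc
TBCK: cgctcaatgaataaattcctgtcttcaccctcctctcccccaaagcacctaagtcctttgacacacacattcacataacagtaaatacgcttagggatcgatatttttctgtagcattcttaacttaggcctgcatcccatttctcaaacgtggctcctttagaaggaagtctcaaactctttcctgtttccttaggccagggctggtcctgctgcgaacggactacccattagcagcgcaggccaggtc
In SOX6 the capitals are a GC box, GGGCGG read on the other strand, and an AP-1 element, TGANTCA. In DHRS3 they are a GC box on the other strand, and the TBCK window held none of the 12 motifs. The table lists 5 starts for SOX6, 3 for DHRS3 and 2 for TBCK, and the array does not show which one these cells used. Such matches describe letters and not binding.

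The same windows could be read for 56 members and for 9986 of all genes. The GC box occurred in 36 of the 56 members, 64.3%, against 67.8% of all genes, and the CCAAT box in 23, 41.1%, against 34.8%. The AP-1 element occurred in 5 members, SOX6, CLEC2D, DDX19B, HDAC9 and MMACHC, which is 8.93% against 3.78% of all genes. The ETS element CCGGAAGT was found in 5 members (8.93% against 7.31%), the E-box CACGTG in 4 (7.14% against 8.96%) and the TATA box TATAAA in 3 (5.36% against 5.31%). The cyclic AMP response element TGACGTCA and the NRF1 element were each found in 1 member, 1.79%, against 2.94% and 2.02% of all genes. Matches to the E2F element TTTNGCGC, the NF-kB element, the retinoic acid response element (a direct repeat spaced by 5) and the core of a p53 element were found in 0 members, against 2.37%, 1.46%, 0% and 0.14% of all genes. These shares use the first listed start of each gene. All listed windows of this length also include further starts of the same genes and the starts of genes not measured here. Among all of them 42.6% held a GC box, 32% a CCAAT box, 6.57% the AP-1 element and 10.7% a TATA box. The corresponding shares were 3.42% for the ETS element, 6.34% for the E-box, 1.65% for TGACGTCA and 1.03% for the NRF1 element. The remaining motifs were in 1.51%, 1.4%, 0.00285% and 0.296% of the windows, in the order given. A window could hold several motifs, and overlaps between matches were not counted separately.

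Epithelial identity was checked on 16 fixed markers, of which 13 were found and 12 passed the level minimum, KRT14 being the one that did not. The summed intensity of the 13 found was 27968 to 29080 on the DMSO arrays, 37231 to 42626 at 500 nM and 35744 to 37363 at 1000 nM. The sums for the other lists likewise cover all markers found, also those below the minimum. Of 14 markers of differentiated airway cells 5 passed, and SCGB1A1, FOXJ1 and CFTR did not. Their sum was 2593 to 2614 in DMSO, lower at 500 nM (2118 to 2384) and higher at 1000 nM (2838 to 3106). AGR2 averaged 1655, 1408 and 1946 in DMSO, at 500 nM and at 1000 nM, and SFTPC 542, 429 and 603. MUC5AC averaged 79.8, 73.5 and 79.8. Against DMSO, AGER was higher at both doses and SFTPB lower at both. Leukocyte markers passed in 3 of 17 found, with PTPRC and CD3E below the minimum. The sum was 715 to 747 in DMSO, 891 to 1115 at 500 nM and 938 to 1041 at 1000 nM. Those that passed were CD74 (351, 513 and 508 in DMSO, at 500 nM and at 1000 nM), CORO1A (143, 235 and 188) and CD14 (43.9, 45.0 and 86.9). Endothelial markers passed in 3 of 16, with PECAM1 and CDH5 below the minimum. The sum was 711 to 746 in DMSO, 724 to 800.3 at 500 nM and 704 to 793 at 1000 nM. Those that passed, FLT1, ENG and EGFL7, averaged 175, 226 and 81.5 in DMSO and 184, 199 and 89.9 at 1000 nM. Fibroblast markers passed in 4 of 16, with COL1A2 and PDGFRB below the minimum, and their sum was 1565 to 1615 in DMSO, 2342 to 2648 at 500 nM and 1706 to 1810 at 1000 nM. Of those that passed, COL1A1 averaged 601, 1015 and 791 in DMSO, at 500 nM and at 1000 nM, and VIM 113, 229 and 261. S100A4 averaged 80.5, 107 and 124. ACTA2 averaged 627, 1027 and 428, so it was below DMSO at 1000 nM. In such bulk RNA, fewer cells of a type and less RNA per cell cannot be told apart. The control log2 ratio of 3′ to 5′ signal for actin was 2.21 ± 0.07 (SD, n = 3) in DMSO, 1.67 ± 0.20 at 500 nM and 1.52 ± 0.04 at 1000 nM, while that for GAPDH was 0.14, 0.20 and 0.17. The part of these shifts in the members' values was not tested. Arrays of 1 group correlated at 0.980 to 0.998.

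Across the 4 lowest doses, 0.1, 0.5, 1 and 5 nM, the median difference of the 62 genes from DMSO was -0.05, -0.07, 0.05 and 0.03. For 10, 50 and 100 nM the values were -0.02, -0.02 and -0.05. The median then went to -0.16 in the 500 nM group and to -0.87 in the 1000 nM group, where the medians of all genes were 0.01 and -0.04. At 1000 nM the members ran from -1.58 to -0.80, with quartiles of -0.96 and -0.83, so most lay close to the threshold. At 500 nM they ran from -0.25 to 0.20, and 53 of 62 were below DMSO. The word only, as applied to 1000 nM, thus describes the width of the window at 500 nM, since most members were already slightly lower there.

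**Figure D1:**
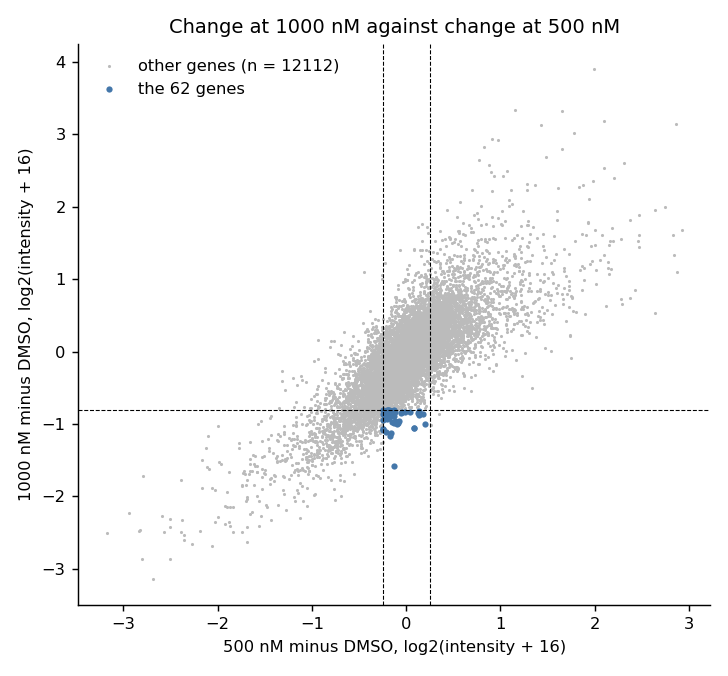
Difference from DMSO at 1000 nM (vertical, log2(intensity + 16)) against that at 500 nM (horizontal) for each gene, with dashed lines at the limits of the rule. The 62 genes fill the lower edge of the window between -0.25 and 0.25, and most lie left of 0; both axes share the DMSO arrays.

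Averaged over the 62 genes, the 3 DMSO arrays stood at -0.07, 0.02 and 0.04 relative to their mean. The 500 nM arrays stood at -0.10, -0.13 and -0.14, and the 1000 nM arrays at -0.94, -0.91 and -0.89. The gap between the 500 nM and 1000 nM averages follows from the rule, while the 3 arrays at 1000 nM lay close to each other. The other 20 arrays lay between -0.15 and 0.09, and replicate 3 at 100 nM, at -0.15, was below the 500 nM arrays. For single genes, every 1000 nM array was below each of the other 26 arrays in 61 of 62 members, a pattern that 17.5% of all genes showed. The exception was CARF, with 16.2, 26.8 and 31.8 at 1000 nM and 46.7, 29.7 and 67.0 at 500 nM. Every 1000 nM array was below every DMSO array in 62 of 62 (38.5% of all genes) and below every 500 nM array in 61 of 62 (28.5%). Every 500 nM array was below every DMSO array in 12 of 62, against 23.8% of all genes. The rule used these arrays, so nothing further is read from these counts.

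**Figure D2:**
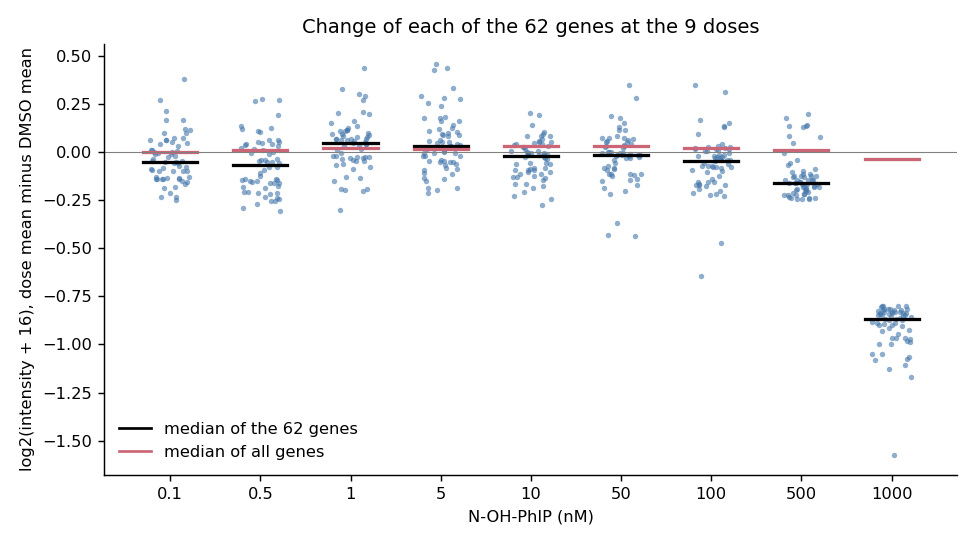
Difference of each of the 62 genes from DMSO (vertical, log2(intensity + 16)) at the 9 doses (horizontal, nM), with black lines for the median of the members and red lines for that of all 12174 genes. The members scatter around 0 up to 100 nM, lie mostly below 0 at 500 nM with a median of -0.16, and fall to a median of -0.87 at 1000 nM.

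The 20 arrays at 0.1 to 100 nM entered the level minimum and the choice of the brightest probe set, as all arrays did, but not the differences that chose the members. Comparisons among these 20 arrays could therefore be tested. A limma slope on log10 dose, with Benjamini-Hochberg adjustment over all 27307 probe sets tested and a threshold of 0.05, called 2 members lower with dose, DDX60 and AAK1, and 1 higher, ZMYND8. These are 3.23% and 1.61% of the members, against 2.65% and 4.9% of all genes. At an unadjusted p under 0.05, 7 members (11.3%) had a falling and 2 (3.23%) a rising slope, against 8.56% and 15.7% of all genes. The contrast of 100 nM with the mean of 0.1, 0.5 and 1 nM called 4 members lower, AAK1, GRHL2, SOX6 and DHRS3, and 2 higher, ZMYND8 and INTU. The shares were 6.45% and 3.23% of members, against 5.06% and 6% of all genes. At an unadjusted p under 0.05 these were 12 members lower (19.4%) and 3 higher (4.84%), against 11.6% and 14.1% of all genes. The shares of adjusted calls among the members rest on 1 to 4 genes each, and those called higher were below the background in both tests.

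Set against the 3 DMSO arrays, which also entered the rule, limma called 2 members lower at 100 nM, SOX6 and DHRS3, where 2.04% of all genes were called lower and 1.85% higher. At 5 nM it called 2 higher, TRAPPC13 and RNF170 (0.329% of all genes), and 0 lower (0.649%). At 0.1 nM it called 1 higher, DDX60 (0.0904%), and 0 lower (0.337%). At 0.5, 1, 10 and 50 nM it called 0 members in either direction, where all genes gave 0.0246%, 0.517%, 0.0821% and 0.123% lower and 0.00821%, 0.222%, 0.181% and 0.164% higher. At those 4 doses 7, 2, 2 and 4 members were lower at an unadjusted p under 0.05 (11.3%, 3.23%, 3.23% and 6.45%, against 4.62%, 5.27%, 3.97% and 2.98% of all genes). In the other direction 0, 6, 0 and 3 were higher (0%, 9.68%, 0% and 4.84%, against 4.67%, 7.3%, 8.25% and 5.82%). At 100 nM 11 members were lower at that p (17.7%, against 7.52% of all genes) and 4 higher (6.45%, against 9.31%). At 5 nM 0 were lower (5.69% of all genes) and 10 higher (16.1%, against 9.19%), and at 0.1 nM 3 were lower (4.84%, against 6.32%) and 1 higher (1.61%, against 4.79%). These unadjusted shares are descriptions, and no test over the members was run.

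SOX6, a transcription factor of the SoxD group, showed the largest difference of the members. Its DMSO arrays gave intensities of 128, 124 and 115, the 500 nM arrays 123, 96.9 and 115, and the 1000 nM arrays 36.2, 24.8 and 31.2. The 1000 nM difference was -1.58 and the 500 nM difference -0.12. SOX6 was not at its control level at every lower dose. At 100 nM its arrays read 69.9, 70.1 and 77.6, below every array of the study outside 1000 nM. This 100 nM value was -0.65 ± 0.13 (SE) from DMSO (limma adjusted p = 0.00336) and -0.43 ± 0.11 from the 0.1 to 1 nM groups (adjusted p = 0.0128). Without 100 nM replicate 1 or 2 the second adjusted p was 0.0647 or 0.0546, while the call against DMSO was kept in all 13 alternatives run. Its course therefore went down at 100 nM, up at 500 nM and down again at 1000 nM. Of 200 transcription factors recognised by symbol outside the zinc finger group, 60 were called lower and 58 higher at 1000 nM, against 35.8% and 27.3% of all genes, and their median was 0.05.

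DHRS3 reduces retinaldehyde to retinol and is known as a gene induced by retinoic acid, which the medium supplied in all groups. Its intensities were 444, 392 and 467 in DMSO, 429, 454 and 289 at 500 nM, and 182, 171 and 199.5 at 1000 nM. Replicate 3 at 500 nM stood below the other two arrays of its group and below all DMSO arrays. At 100 nM the arrays read 285, 343 and 296, all below DMSO. That difference was -0.48 ± 0.12 from DMSO (limma adjusted p = 0.024) and -0.26 ± 0.08 from 0.1 to 1 nM (adjusted p = 0.0312). The DHRS3 call against DMSO was lost without DMSO replicate 1 or 3 or 100 nM replicate 1 or 3, with adjusted p of 0.0856, 0.0989, 0.122 and 0.0935. That against 0.1 to 1 nM was lost without 100 nM replicate 1 (0.185) or 3 (0.129), 1 nM replicate 1 (0.0564), 0.5 nM replicate 1 (0.0799) or 0.1 nM replicate 3 (0.0527). Its 1000 nM and 500 nM differences were -1.17 and -0.17.

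GRHL2, a grainyhead-like factor that maintains epithelial gene expression, gave 2215, 2251 and 2363 in DMSO, 2156, 1774 and 2126 at 500 nM, and 1193, 1211 and 1194 at 1000 nM. The 1000 nM arrays differed little from each other and lay far below the rest. At 100 nM the GRHL2 arrays read 2159, 2053 and 2041, below all 8 arrays at 0.1 to 1 nM. The difference was -0.16 ± 0.04 (limma adjusted p = 0.00722, and 0.0513 without 100 nM replicate 3). MEIS1, a homeobox factor of the TALE class, gave 421, 489 and 449 in DMSO, 400.1, 418 and 361 at 500 nM and 275, 185 and 241 at 1000 nM, with no call at a lower dose.

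**Figure D3:**
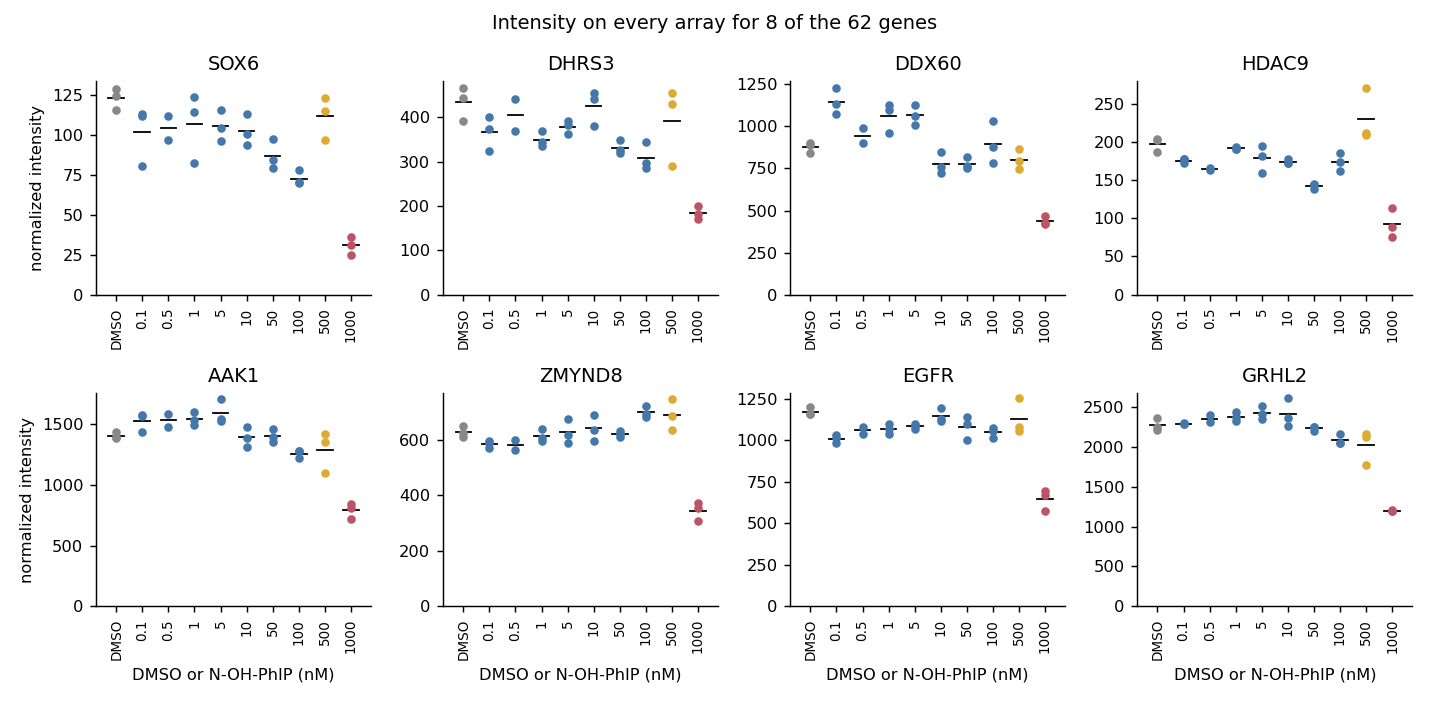
Normalized intensity (vertical, linear scale from 0) on every array for 8 of the 62 genes in the DMSO group and at the 9 doses (horizontal, nM), with a bar at each group mean. In all 8 panels the 1000 nM points lie below every other point, SOX6 and DHRS3 are also low at 100 nM, and the 500 nM points of HDAC9 lie above those of DMSO.

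EGFR, the receptor for epidermal growth factor, which activates RAS and PI3K signalling, gave 1157, 1202 and 1156 in DMSO, 1253, 1077 and 1059 at 500 nM, and 573, 671 and 692 at 1000 nM. The 500 nM arrays spanned the DMSO values and the 1000 nM arrays lay below both, with differences of -0.06 and -0.85. Of 33 measured genes of the receptor tyrosine kinase, RAS and PI3K list, 13 (39.4%) were called lower and 8 higher at 1000 nM. The shares of all genes were 35.8% and 27.3%, and the list median was -0.01. EGFR was the 1 member of that list that the rule picked.

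AAK1, a kinase that phosphorylates the AP-2 adaptor of clathrin-coated pits, was lower at 100 nM than at the 3 lowest doses. At 0.1 to 1 nM the 8 AAK1 arrays read 1433 to 1604, and at 100 nM 1223, 1276 and 1277. The DMSO arrays were 1437, 1387 and 1392, the 500 nM arrays 1094, 1353 and 1419 and the 1000 nM arrays 719, 811 and 844. Against 0.1 to 1 nM the 100 nM difference was -0.28 ± 0.05 (limma adjusted p = 0.00048), and this call held in all 26 alternatives run. The slope was -0.08 ± 0.02 per 10-fold dose (adjusted p = 0.0174, and 0.0518 without 100 nM replicate 1). Against DMSO AAK1 was not called at 100 nM.

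PRKCZ, an atypical protein kinase C of the cell polarity complex, gave 356, 364 and 368 in DMSO, 343, 378 and 227 at 500 nM and 173, 184 and 201 at 1000 nM. PRKCH, a protein kinase C isoform of epithelia, gave 291, 323 and 331 in DMSO, 267, 325 and 239 at 500 nM, and 171, 169 and 179.9 at 1000 nM. In both genes replicate 3 at 500 nM was the lowest of its group, and all 1000 nM arrays were lower still. Of 241 protein kinases recognised by symbol, 107 (44.4%) were called lower and 53 higher at 1000 nM, against 35.8% and 27.3% of all genes. The median of these kinases was -0.12. TBCK, a protein with a kinase-like and a TBC domain, gave 542, 539.7 and 601 in DMSO, 486, 519 and 496 at 500 nM and 245, 231 and 267 at 1000 nM. All its 500 nM arrays lay below DMSO, by -0.16 on average, against -1.13 at 1000 nM.

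HDAC9, a class IIa histone deacetylase, stood at the upper side of the window. Its intensities were 203, 204 and 186 in DMSO, 269.9, 209 and 212 at 500 nM, and 74.8, 88.4 and 114 at 1000 nM. Every 500 nM array of HDAC9 was thus above every DMSO array, and every 1000 nM array below. At 50 nM the arrays read 144, 138 and 145, and against 0.1 to 1 nM, where they read 164 to 194, the difference was -0.29 ± 0.06 (limma adjusted p = 0.0395). That reference was added after the data had been seen, and 0.378% of all genes were called lower and 0.32% higher there. On the list of chromatin remodellers and histone modifiers 25 of 47 genes (53.2%) were called lower and 9 higher at 1000 nM. The list median was -0.20, and 35.8% and 27.3% of all genes were called.

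ZMYND8, a reader of histone marks, was higher at 100 nM than at 0.1 to 1 nM. The 8 arrays at 0.1 to 1 nM read 565 to 639 and the 100 nM arrays 693, 724 and 682. The ZMYND8 arrays were 649, 611 and 624 in DMSO, 685, 636 and 748 at 500 nM, and 306, 372 and 353 at 1000 nM. At 100 nM the difference from 0.1 to 1 nM was 0.23 ± 0.05 (limma adjusted p = 0.00627), a call held in all 26 alternatives run. Against DMSO the 100 nM difference was 0.15 ± 0.07 and was not called (adjusted p = 0.313). The slope was 0.07 ± 0.02 per 10-fold dose (adjusted p = 0.0276). It missed the threshold without 100 nM replicate 1, 2 or 3 (0.066, 0.0752 and 0.0503) or without 0.1 nM replicate 2 (0.076).

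SMARCAL1, an annealing helicase that acts at stalled replication forks, gave 679, 653 and 676 in DMSO, 533, 716 and 497 at 500 nM and 300.4, 321 and 287 at 1000 nM. At 500 nM 1 array was above and the other two below the DMSO arrays. The 7 lists of homologous recombination, excision and mismatch repair, checkpoint, p53 target, replication and mitosis genes held 0 members among 204 measured genes. Members were 0.509% of all genes, so a count of 0 says little about these lists. At 1000 nM the share called lower was 70.4% for homologous recombination and 52.4% for base excision and mismatch repair. It was 36.4% for nucleotide excision repair, 50% for checkpoint, 0% for p53 target, 34% for replication and 48.6% for mitosis genes. In that order, 2, 3, 7, 4, 25, 20 and 6 of 27, 21, 22, 28, 28, 47 and 35 genes were called higher. Of all genes 35.8% were lower and 27.3% higher. Of the members named for zinc fingers, ZNF594 gave 183 to 244 in DMSO and 95.8 to 135 at 1000 nM, ZNF462 1329 to 1557 and 734 to 852, and ZNF606 176 to 184 and 64.1 to 124. Of 459 C2H2 zinc finger and BTB genes 162 (35.3%) were called lower and 116 higher at 1000 nM, with a median of -0.06. This compares with 35.8% and 27.3% of all genes. CARF, a calcium-responsive transcription factor, had arrays of 42.0, 52.9 and 73.5 in DMSO. MYRFL, TCEANC and HARBI1, a gene derived from a transposase, differed by -0.84, -0.81 and -0.87 at 1000 nM.

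DDX60, a helicase induced by interferon that takes part in antiviral sensing, had the steepest falling slope of the members. In DMSO it gave 840.3, 903 and 890.4. At 0.1 nM the arrays read 1229, 1131 and 1077, all above DMSO, and at 10 nM 846, 762 and 721. They returned to 877, 1029.9 and 779.9 at 100 nM, so the course was not a steady decline. At 500 nM DDX60 gave 864, 749 and 797 and at 1000 nM 419.6, 469 and 424. The slope was -0.15 ± 0.04 per 10-fold dose (limma adjusted p = 0.0123), which held in all 26 alternatives run. With the 0.1 to 1 nM groups as an added reference the differences were -0.43 ± 0.07 at 10 nM (adjusted p = 0.00388) and -0.42 ± 0.07 at 50 nM (0.007), and -0.23 ± 0.07 at 100 nM (0.0502). Of all genes, that reference called 1.42% lower and 3.69% higher at 10 nM, and at 5 nM, where it called 0 members, 0.123% and 0.0329%. The rise at 0.1 nM over DMSO, 0.38 ± 0.09 (limma adjusted p = 0.039), was lost whichever of the 6 arrays was left out, with adjusted p of 0.054, 0.148 and 0.0905 without DMSO replicates 1 to 3 and 0.17, 0.109 and 0.0648 without 0.1 nM replicates 1 to 3.

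DDX60 stood at -0.13 at 500 nM and -0.98 at 1000 nM. Of 28 measured genes on the interferon and antiviral list, which includes DDX60, 1 was called lower and 15 higher at 500 nM, where 24.8% and 25.2% of all genes were called, and the list median was 0.27. At 1000 nM 8 of them (28.6%) were lower and 11 higher, against 35.8% and 27.3% of all genes, and the list median was 0.02.

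Among the genes of RNA handling, DDX19B, a helicase of mRNA export at the nuclear pore, gave 75.1, 92.0 and 92.9 in DMSO, 69.2, 75.3 and 67.1 at 500 nM and 32.5, 21.6 and 48.3 at 1000 nM. The first DMSO array overlapped the 500 nM arrays, and the gene lay near the lower edge of the window at -0.24. DCP1B, a cofactor of the mRNA decapping enzyme, gave 353, 355 and 342 in DMSO, 364, 354 and 366 at 500 nM and 204, 197 and 168 at 1000 nM. Its DMSO and 500 nM arrays overlapped, and the 1000 nM arrays lay below both, while the rule itself compares group means only. Of 39 genes of mRNA decay and translation control, 17 (43.6%) were called lower and 14 higher at 1000 nM, with a median of -0.01. Of 198 RNA helicases and RNA-binding proteins 72 (36.4%) were lower and 51 higher, with a median of -0.03. Both counts stand beside 35.8% lower and 27.3% higher of all genes.

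Of the RNA-modifying enzymes, TRMT1L, related to a tRNA methyltransferase, gave 809, 828 and 799 in DMSO and 405, 397 and 487 at 1000 nM. This was a difference of -0.90 on its brightest probe set. A TRMT1L probe set with a DMSO mean of 817 differed by -0.60, and one with 115 by 0.02. METTL8, which methylates mitochondrial tRNA, was above DMSO at 500 nM, with 629, 657 and 596 in DMSO, 716, 679 and 736 at 500 nM and 334, 335 and 346 at 1000 nM. The METTL8 groups did not overlap in any pair. The symbol family of methyltransferases and tRNA-modifying enzymes had 39 of 85 genes (45.9%) called lower and 16 higher at 1000 nM. Its median was -0.15, and 35.8% and 27.3% of all genes were called. PRORP, the nuclease of mitochondrial RNase P, and PTCD2, a mitochondrial pentatricopeptide repeat protein, differed by -0.82 and -0.96 at 1000 nM and by -0.15 and -0.12 at 500 nM.

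Of the members, 58 are protein-coding in RefSeq, 2 are long noncoding RNA genes and 2 are transcribed pseudogenes. DLG1-AS1, named for its position antisense to DLG1, gave 181, 184 and 194 in DMSO, 166, 166 and 187 at 500 nM and 80.9, 88.2 and 87.4 at 1000 nM. DLG1 itself, a scaffold of cell junctions, went from 2783 in DMSO to 1651 at 1000 nM, a difference of -0.75 ± 0.06 (limma adjusted p = 2.8e-11). NUP50-DT, a divergent transcript beside NUP50, gave 178, 195 and 199 in DMSO and 101, 98.5 and 103 at 1000 nM. NUP50, a nuclear pore protein, was 3740 and 3718, a difference of -0.01 (limma adjusted p = 0.86). At 1000 nM the neighbour was thus at the control level in this pair and below it in the other. At 500 nM NUP50 stood at -0.22 and DLG1 at -0.33, so both were below DMSO there. Among 530 noncoding genes recognised by symbol, 215 (40.6%) were called lower and 108 higher at 1000 nM, against 35.8% and 27.3% of all genes. The median of these 530 was -0.14. The pseudogenes LRRC37A4P and FAHD2CP differed by -0.93 and -0.84, and both have close relatives whose RNA their probes may also bind.

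Several members serve cilia, centrosomes and microtubules. IFT88, a subunit of the intraflagellar transport complex B, gave 333, 353 and 373 in DMSO, 315, 346 and 292 at 500 nM and 180.4, 170.3 and 208 at 1000 nM. IFT43, a subunit of complex A, gave 1551, 1603 and 1660.1 in DMSO, 1439.9, 1642 and 1229.7 at 500 nM and 837, 852 and 890.3 at 1000 nM. The DMSO and 500 nM arrays overlapped in both genes. On the fixed list of centrosome and cilium genes 27 of 45 (60%) were called lower and 7 higher at 1000 nM, with a median of -0.31. Of all genes 35.8% and 27.3% were called there. At 500 nM 13 of the list were lower and 11 higher, against 24.8% and 25.2% of all genes, and the list median was -0.04. IFT88 was the 1 member on this list.

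INTU, a planar polarity effector needed to build cilia, gave 217, 229 and 283 in DMSO, 256, 188 and 207 at 500 nM and 109, 121 and 116 at 1000 nM. At 100 nM it read 246, 294 and 260.4, against 196 to 262 at 0.1 to 1 nM. That rise of 0.27 ± 0.08 had a limma adjusted p of 0.0494 and overlapped between the groups. It missed the threshold in 19 of 26 alternatives, with adjusted p up to 0.245 without 100 nM replicate 2. PRICKLE2, another planar polarity protein, gave 285, 363 and 338 in DMSO, 344, 292 and 418 at 500 nM and 144, 146 and 160.0 at 1000 nM. The centriole protein POC5 differed by -0.83 at 1000 nM and -0.22 at 500 nM. KIF18A, a kinesin that limits chromosome movement in mitosis, went from 351, 320.2 and 297 in DMSO to 264, 252 and 301 at 500 nM and 169.8, 171 and 164 at 1000 nM. Of 94 kinesin, dynein and microtubule genes, 40 (42.6%) were called lower and 26 higher at 1000 nM, against 35.8% and 27.3% of all genes. The median of these 94 was -0.09.

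Regulators of small GTPases were represented by STARD13, TBC1D19 and FGD4. STARD13 gave 189, 223 and 196 in DMSO, 200.2, 221 and 223 at 500 nM and 88.2, 108 and 74.9 at 1000 nM. TBC1D19, with a domain that acts on Rab GTPases, gave 269, 284 and 283 in DMSO, 236, 247 and 252 at 500 nM and 156, 130.2 and 156 at 1000 nM. In STARD13 the 500 nM arrays overlapped DMSO, and in TBC1D19 all of them lay below it. FGD4, an exchange factor for Cdc42, was among the members closest to the threshold at -0.80. The family had 117 of 272 genes (43%) called lower and 45 higher at 1000 nM, against 35.8% and 27.3% of all genes. Its median was -0.11.

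In membrane traffic, TRAPPC13, a subunit of the TRAPP tethering complex, was above DMSO at low doses. Its arrays read 209, 217 and 229.8 in DMSO and 282, 285 and 356 at 5 nM. At 500 nM they read 193, 172 and 236, and at 1000 nM 106, 102 and 124. The 5 nM difference was 0.46 ± 0.11 (limma adjusted p = 0.0327). The TRAPPC13 call was lost without 5 nM replicate 1 (0.0532) or 3 (0.213) or DMSO replicate 1 (0.105), 2 (0.154) or 3 (0.0592). EXOC2, a subunit of the exocyst that tethers vesicles to the plasma membrane, gave 476, 484 and 477 in DMSO, 394, 465 and 436 at 500 nM and 262, 282 and 253 at 1000 nM. GRAMD2A, a protein of contacts between the endoplasmic reticulum and the plasma membrane, gave 3638, 3540.2 and 3684 in DMSO, 4324, 4076 and 3591 at 500 nM and 1894, 2231 and 1813 at 1000 nM. It was 1 of 9 members with a 500 nM mean above DMSO. KIAA1671 gave 1637, 1695 and 1666 in DMSO, 1514, 1583 and 1505 at 500 nM and 926, 959 and 907 at 1000 nM, with all 3 groups apart. CLHC1, APBA1, FRMD5 and LRCH1 differed by -0.97, -0.86, -0.96 and -0.80 at 1000 nM.

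Protein turnover was represented by the ubiquitin ligases RNF170, RNF214, UBE3D and NEURL1B. RNF170, a ubiquitin ligase of the endoplasmic reticulum that acts on inositol trisphosphate receptors, gave 642, 634 and 676 in DMSO, 805, 756 and 818 at 5 nM, 532, 614 and 597 at 500 nM and 351, 344 and 386 at 1000 nM. Its 5 nM arrays were all above DMSO, by 0.28 ± 0.07 (limma adjusted p = 0.0403). The RNF170 call was lost without 5 nM replicate 1 (0.0971) or 3 (0.181) or DMSO replicate 1 (0.111), 2 (0.197) or 3 (0.0618). RNF214 gave 229 to 271 in DMSO and 119 to 146 at 1000 nM, and UBE3D 296 to 310.1 and 141 to 177. NEURL1B, a ligase acting on Notch ligands, gave 254, 306 and 270.1 in DMSO, 366, 282 and 272 at 500 nM and 138, 157 and 156 at 1000 nM. Of 352 ubiquitin ligases and deubiquitinases 129 (36.6%) were called lower and 82 higher at 1000 nM, against 35.8% and 27.3% of all genes. The median of these 352 was -0.09.

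Transport and metabolism made up the rest. SLC25A13, the mitochondrial carrier that exchanges aspartate for glutamate, gave 691, 682 and 736 in DMSO, 607, 586 and 585 at 500 nM and 304, 356 and 317 at 1000 nM. Its 3 groups did not overlap. SLC22A15, an organic ion transporter, gave 282 to 359 in DMSO and 157 to 202 at 1000 nM, and CLCN4, a chloride and proton exchanger of endosomes, 285 to 352 and 151 to 158. Of 254 solute carriers and ABC transporters, 85 (33.5%) were called lower and 81 higher at 1000 nM, against 35.8% and 27.3% of all genes. The median of these 254 was 0.01. The mitochondrial proteins RTN4IP1 and OMA1, an inner membrane protease, differed by -0.95 and -0.83. DERA, which splits deoxyribose phosphate, gave 1967, 2001 and 2219 in DMSO, 1783, 2081 and 1734 at 500 nM and 1149, 1136 and 1127 at 1000 nM. MMACHC, which processes vitamin B12, and the amidase NIT1 differed by -0.80 each.

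Outside the cell, NTN4, a secreted netrin of basement membranes, gave 302, 306 and 343 in DMSO, 304, 253 and 288 at 500 nM and 173, 157 and 170.0 at 1000 nM. CLEC2D, a lectin-like ligand of a natural killer cell receptor, gave 57.8, 101 and 83.4 in DMSO, 68.5, 60.2 and 64.7 at 500 nM and 42.0, 28.1 and 19.7 at 1000 nM. Its DMSO arrays spread widely and overlapped the 500 nM arrays. The probe sets of CLEC2D and FGD4 carry the array maker's x suffix, which marks probes that can match other transcripts. FAM228B, a gene whose role is not described here, gave 306, 266 and 317 in DMSO and 219, 159 and 114 at 1000 nM.

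Other probe sets of the same genes, whose differences the rule did not use, were available for 24 members, 35 in all, and were read on the same arrays. At 1000 nM 26 of the 35 were below DMSO and 9 above, and 11 were lower by at least 0.8. At 500 nM 24 were within 0.25 of DMSO, and 5 met both conditions. In 7 members every other probe set was lower by 0.8 or more, and 8 members had one above 0. SOX6 had probe sets at -1.71 and -1.03, close to DMSO at 500 nM at 0.01 and -0.02, and a further one at 0.35. RTN4IP1, FRMD5, CLEC2D, EXOC2, ZNF462 and GRAMD2A had others at -1.06, -1.10, -1.05, -0.90, -0.97 and -0.94. At 500 nM those of RTN4IP1, FRMD5, CLEC2D and EXOC2 were outside the window of 0.25, at -0.36, -0.41, -0.29 and -0.37. Those of ZNF462 and GRAMD2A were within it, at 0.19 and 0.03.

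Several genes gave different answers by probe set. The second HDAC9 probe set went from 196 in DMSO to 33.4 at 1000 nM, a difference of -2.10, and was already at -2.17 at 500 nM, so HDAC9 was near DMSO at 500 nM on its brightest probe set only. EGFR had others at -0.73 and -0.24, with DMSO means of 627 and 798, and a pair of dim ones at 0.15 and 0.17. SLC25A13 had -0.27 and -0.23 beside -1.08 on its brightest. ZNF606, TRAPPC13 and PRKCH had probe sets above DMSO, at 0.37, 0.32 and 0.26, and PRKCH one more at -0.88. At 500 nM this ZNF606 probe set stood at 0.86 and the lower one of PRKCH at -0.37. AAK1 had a dim one at 0.14, with a DMSO mean of 39.8. Probe sets of a gene can read different transcript ends or exons, and where each one lies was not analysed here.

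**Figure D4:**
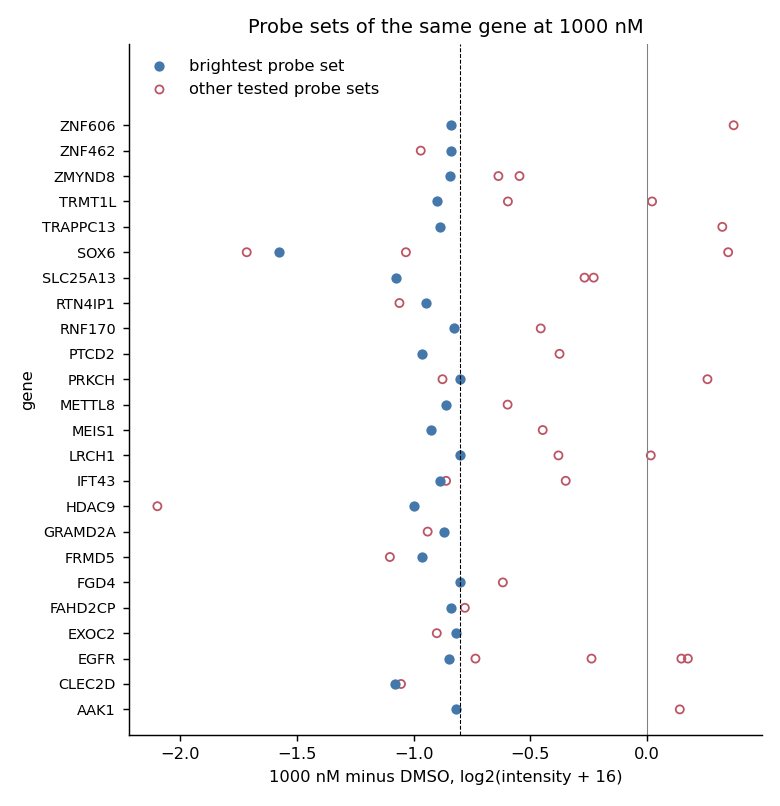
Difference from DMSO at 1000 nM (horizontal, log2(intensity + 16)) for the brightest probe set (filled) and every other tested probe set (open) of the 24 members that have one, with a dashed line at -0.8. Open circles to the right of 0 belong to 8 genes, and the HDAC9 circle at -2.10 lies far left of its brightest probe set.

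The distance a gene covers in the genome did not enter the rule. The median span in GRCh38.p14 was 93.7 kb for the 62 members, of which 29, or 46.8%, exceeded 100 kb. Over all genes the median was 28.9 kb and 17.5% exceeded 100 kb. The members were thus longer than the typical gene, and shorter than the genes lower by 0.8 or more at both doses, which had a median of 285 kb with 79.6% above 100 kb. Genes higher at 1000 nM alone had a median of 12.6 kb. Within the 968 genes lower at 1000 nM, the 555 with a 500 nM difference between -0.8 and -0.25 had a median of 119 kb. The longest member, HDAC9, spans 916 kb and SOX6 772 kb, while DLG1-AS1 spans 5.51 kb and NIT1 7.34 kb. Across the members, the Spearman correlation of span with the 1000 nM difference was -0.0817 and with the 500 nM difference 0.178, over 62 genes of a narrow range fixed by the rule, against -0.387 and -0.301 over 12164 genes. These points share arrays and a reference group, and genes are not independent replicates.

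**Figure D5:**
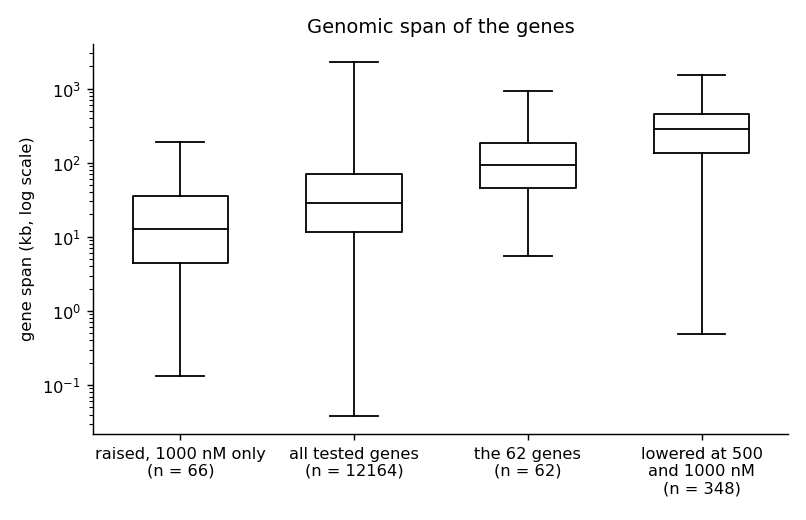
Genomic span of genes (vertical, kb, log scale) in 4 sets, with boxes for the median and quartiles and whiskers to the lowest and highest. The 62 genes have a median of 93.7 kb, between all tested genes at 28.9 kb and the genes lower at both 500 and 1000 nM at 285 kb.

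The members were spread over 20 chromosomes, with 8 on chromosome 2, 7 on chromosome 1 and 6 on chromosome 12. Among all RefSeq protein-coding, long noncoding RNA and transcribed pseudogene entries, measured here or not, 0 pairs of members were direct neighbours. In the promoter windows their GC content had a median of 62.2%, against 65.2% for all genes, and the number of CpG pairs a median of 17 against 21. In the same 20 arrays at 0.1 to 100 nM, whose values entered the level minimum but not the rule's differences, deviations of 1 member from its group means correlated with those of another at a mean r of 0.219, against 0.0465 over pairs of all genes. These deviations share culture, labelling and scaling of each array.

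The edges of the rule cut through a continuous range. NIT1, FGD4 and LRCH1 lay just inside the limit at 1000 nM, and TIAM2, ARHGAP22 and USP24 just outside, all 6 at -0.80 when rounded. At 500 nM APBA1, NIT1 and DDX19B lay inside the lower limit at -0.25, -0.25 and -0.24, and COL8A1, COMMD2 and RDM1 outside at -0.25 each. On the upper side HDAC9, METTL8 and GRAMD2A lay inside at 0.20, 0.18 and 0.14, and NHS and IP6K3, the 2 genes outside, at 0.26 and 0.35. Without 500 nM replicate 3, the array that read low for DHRS3, PRKCZ and PRKCH, the rule gave 75 genes, of which 54 were among the 62. Leaving out each of the 9 arrays behind the rule in turn gave 53 to 88 genes and kept 47 to 56 members, and 17 members were kept whichever array was left out. These were CLCN4, CLHC1, DDX60, DLG1-AS1, FRMD5, GRAMD2A, GRHL2, IFT88, KIAA1671, METTL8, NTN4, PRICKLE2, PTCD2, SOX6, STARD13, TBCK and TRAPPC13. DMSO was the reference in all of these runs. With the 0.1 to 1 nM arrays as reference, the overlap was lower than with any 1 array left out, as given in the last section.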

How the data were processed

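RNA of BEAS-2B cultures was measured on 29 arrays with 1 sample each. The deposited values are normalized intensities, 1 per probe set, made by the authors with the software GCOS, per the submitters' processing notes. Version and scaling target are not given in the sources used here. Array medians were 35.8 to 38.4, and the number of arrays limits the precision. Of 54675 probe sets, 62 controls were left out, 41091 had 1 gene symbol in the platform annotation, 1801 several and 11721 none. Values were used as log2(intensity + 16) with no further scaling, and 27307 probe sets with a mean of at least 5.74 (an intensity of 37.4) were tested. For genes, the brightest probe set with 1 symbol was taken.

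Tests used limma 3.58.1 in R 4.3.3 with a mean-variance trend, two-sided, with Benjamini-Hochberg adjustment over all probe sets of a comparison and a threshold of 0.05. The fits had 18, 13 and 19 residual degrees of freedom for the slope, the contrast of 100 nM with 0.1 to 1 nM, and all 10 groups. Simulated data had 27307 probe sets with noise drawn independently for each. In the slope, changes of 0.5 and 1 over the whole range of 0.1 to 100 nM were recovered for 94% and 100%. For the same changes the shares were 87% and 100% at 100 nM against 0.1 to 1 nM, and 74% and 98% at 100 nM against DMSO. False calls numbered 16, 10 and 11 in these comparisons. Deviations of genes were correlated in the measured arrays, so recovery there may differ. The members, gene lists and tests were chosen with earlier results of these data known, so no set test or p over the members was run. Genes named with values are the 12 with the lowest differences from DMSO at 1000 nM and the 5 with the brightest probe sets in DMSO. They also include those called at lower doses, up to 4 per list, the 3 nearest each edge and up to 6 with discordant probe sets. All other members are named to account for each. Symbols, spans and promoters came from RefSeq GRCh38.p14 through gene identifiers, which matched 12164 genes and all 62 members. Figures were drawn with matplotlib 3.10.9. Alternatives were offset, scaling, filter, probe set summary, reference, replicate block, trend and each array left out.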

Additional observations from a re-analysis of the deposited data

How the results depend on the processing

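The rule gave 62 genes, 87 with an offset of 1 (57 shared), 54 after quantile normalization (51), 48 after median centring (47), 52 with the mean of a gene's probe sets (43) and 61 with the 0.1 to 1 nM arrays in place of DMSO, of which 24 were shared. Over single arrays left out it gave 53 to 88. Of counts of calls among the members, those higher at 1 nM went from 0 to 1 with quantile normalization and with centring, and to 2 where the fit held the 2 compared groups alone. Members higher at 100 nM against 0.1 to 1 nM went from 2 to 1 with quantile normalization, centring, no level filter and no trend, and those lower from 4 to 7 with centring. Members higher at 5 nM went from 2 to 0 with no level filter, in the fit of the compared groups alone, and with the 0.1 to 1 nM reference, which was added after seeing the data. For 10, 50 and 100 nM that reference gave 1, 2 and 4 members lower, against 0, 0 and 2 with DMSO, and for 100 nM it gave 2 higher, against 0. The 1 member higher at 0.1 nM became 0 without the trend. With each array left out in turn, the slope called 1 to 3 members lower and 0 to 1 higher, and 100 nM against 0.1 to 1 nM called 2 to 6 lower and 1 to 2 higher. Against DMSO it called 0 higher at 0.1 nM in each case, 0 to 3 higher at 5 nM and 1 to 2 lower at 100 nM. Of the 14 calls on single members in the slope, at 100 nM against 0.1 to 1 nM and against DMSO, 0 changed direction, and the calls of HDAC9 and DDX60 at 10 or 50 nM against 0.1 to 1 nM were not run under alternatives. Replicate numbers gave no clear sign of pairing. Arrays of different groups with the same number had a mean correlation of deviations of 0.00776 and others of -0.00349. Of 29 arrays 7 correlated best with their own number. Deviations sum to 0 within a group, which holds the mean over all pairs near 0. Single pairs reached 0.728 with the same number and 0.513 with others, and 29 of 126 and 62 of 252 exceeded 0.1. With the replicate number as a block, members higher at 5 nM went from 2 to 1 and those higher at 100 nM against 0.1 to 1 nM from 2 to 1, with 5 lower in place of 4. The cause of these shifts was not tested. Signals near the level minimum, such as those of CARF and APBA1, limit what can be read for these genes.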
